A study of Mus musculus with 22 samples.

Results

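The RNA of the unloaded left ulna of wildtype mice is described here: 7 libraries, 1 from each of 7 mice, taken from the 22 libraries of the series by their labels (wildtype and non-loaded). The ulna is a forearm bone, and the piece sampled was its midshaft. The other 15 libraries were the loaded right ulnae of the same mice and both ulnae of 4 Tlr4 conditional knockout mice, and their counts enter no level, share or test below. The list of genes is shared with them. No listed gene had fewer than 10 counts over all 22 libraries, and 45 listed genes had none in the 7 used here. The bones were kept in RNAlater and milled in liquid nitrogen, and stranded total RNA libraries were made from 4 ng of RNA each, so that RNA without a poly(A) tail is also present. Strain, age, sex, floxed allele, Cre, loading regime and time of harvest are not given in the labels used here. The left limbs had no loading themselves, but each came from a mouse whose right limb was loaded.

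The shaft of a long bone holds osteoblasts, which lay down matrix rich in type I collagen, and osteocytes, which descend from them, live inside the mineralised matrix and secrete regulators such as sclerostin. Osteoclasts resorb the matrix. The shaft encloses marrow, where blood cells form, and is wrapped in periosteum to which muscle and tendon attach, so that milled bone can carry RNA of all of these. In such bulk samples, fewer cells of a type and less RNA per cell cannot be told apart.

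Each library held between 22744319 and 42833729 gene counts. Of the 25471 genes listed, 14031 reached 1 CPM (the count scaled to a library total of 1000000) in all 7 libraries, 8381 reached 10 CPM, 908 reached 100 CPM and 29 reached 1000 CPM. Among the 17017 nuclear mRNA genes, 12796 reached 1 CPM in all 7 libraries. Means are given ± SD over the 7 mice (n = 7) throughout. No 2 libraries held the same counts. The library of mouse 699 stood apart from the others. On the first principal component of log2 CPM, which took 52.5% of the variance, it lay at -88.2 and the other 6 between -0.799 and 22.8. It was the highest of the 7 libraries for 49.8% of the genes with a mean of 10 CPM or more and the lowest for 24.0%. The main results that rest on it are given with and without it. The cell types below are read from summed counts of marker lists as a share of all gene counts. Lists differ in the number and length of their genes, so their shares are not proportions of cells.

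Messenger RNA of nuclear genes made up 73.8% ± 3.23 of the counts, from 69.6% in mouse 685 to 77.3% in mouse 699, with a median of 75.7%. Structured small RNAs made up 15.2% ± 3.19, and most of that was 7SL RNA, the RNA scaffold of the signal recognition particle that guides secreted proteins to the endoplasmic reticulum. 7SL RNA alone took 11.5% ± 3.02 of the counts, from 8.92% in mouse 699 to 16.7% in mouse 685, with a median of 9.96%. The 7SL share was above 14% in mice 685 and 687 and under 12% in the others. 7SK RNA, which holds the elongation factor P-TEFb inactive, took 2.14% ± 0.265 and differed less between mice, from 1.77% in mouse 686 to 2.57% in mouse 687, with a median of 2.12%. The RNase P and RNase MRP RNAs (Rpph1 and Rmrp), which process transfer and ribosomal RNA, took 1.14% ± 0.153.

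7SL RNA was counted on 2 genes of chromosome 12, Rn7s1 and Rn7s2, which are identical over their length, and it took more counts than any other RNA in every library. Because the copies are identical, their split carries no information on either gene. Rn7s1 received between 26.3% and 49.5% of the pair's counts, and the sum is the quantity to read. It was 115475 ± 30193 CPM.

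The unnamed gene models Gm26917 and Gm42418 of chromosome 17 took 4.46% ± 1.66 of the counts. Both are known to share sequence with ribosomal RNA repeats. Gm26917 ranged from 23597 in mouse 694 to 43106 in mouse 687, with a median of 29305 CPM. Gm42418 ranged from 5057 in mouse 694 to 42390.5 in mouse 686, with a median of 7919 CPM, and mouse 686 was the highest by far. Messenger RNA of the 13 mitochondrial genes took 3.22% ± 1.18, from 1.95% in mouse 685 to 4.97% in mouse 692, with a median of 2.72%. The shares in mice 690, 692 and 694 were all above those in the other 4. A further 0.930% ± 0.312 was counted on 7 pseudogenes of chromosome 1 that are copies of mitochondrial genes. The largest, Gm28437 (4051 ± 1347 CPM), is identical to mt-Co3 over 783 bases, and Gm28661 is identical to mt-Co2 over 681 bases, so counts on these pseudogenes and on the mitochondrial genes cannot be told apart. Long noncoding and unconfirmed transcripts took 1.76% ± 0.209, pseudogenes 0.259% ± 0.0293, and immunoglobulin and T-cell receptor segments 0.0772% ± 0.0319.

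**Figure D1:**
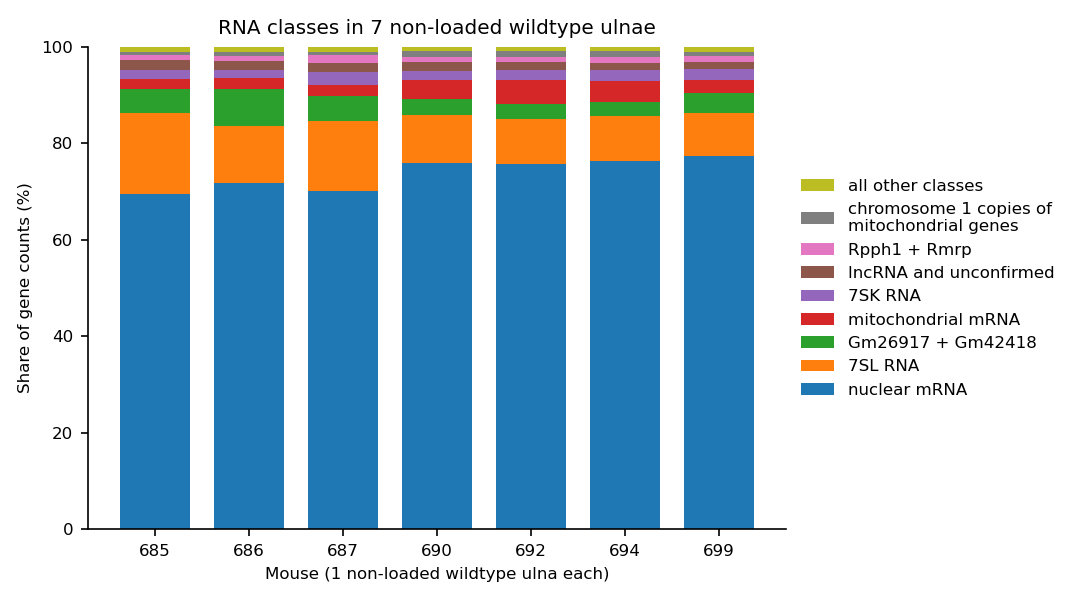
Share of each library's gene counts (%, y axis) by RNA class, stacked from nuclear mRNA at the bottom, in the 7 mice (x axis). Nuclear mRNA takes between 69.6% and 77.3%, and the 7SL block is tallest in mouse 685.

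By CPM, 20 genes together took 33.1% ± 5.75 of the counts. In descending order of mean they were Rn7s2, Ttn, Rn7s1, Gm26917, Rn7sk, mt-Co1, Gm42418, Rpph1, Atp2a1, Myh1, Malat1, Neb, Col1a1, Col1a2, Acta1, Gm28437, Aldoa, Ckm, mt-Cytb and Ahnak. Titin (Ttn), the giant spring protein of the muscle sarcomere, ranked 2 by CPM with 57112 ± 18756 CPM and ranked between 1 and 4 in every library. Its exons cover 116825 bases, and per length it ranked 26 among nuclear coding genes. The nuclear RNA Malat1 was at 7814 ± 1296 CPM, from 6049 in mouse 699 to 9213 in mouse 687, with a median of 8368 CPM.

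Per length, measured as counts per exon length, scaled to the same total in each library over nuclear protein-coding genes (TPM), the highest gene was Acta1, skeletal muscle actin, at 15682 ± 5645 TPM. Next came Atp2a1, the calcium pump of fast muscle (13174 ± 5173 TPM), S100a9 (10850.4 ± 11003 TPM), Pvalb, the calcium buffer of fast muscle (9104 ± 4133 TPM), and S100a8 (8110.1 ± 7369.6 TPM). Without mouse 699, S100a9 was at 6727 ± 1559.5 TPM and ranked 9, and S100a8 was at 5359 ± 1269 TPM and ranked 13. Of the 25 highest, 10 were on the skeletal muscle marker list, 3 on the neutrophil list and 1, Col1a1, on the osteoblast list. The others were Actb, Eef1a1, Rplp1, Lyz2, the histone genes Hist1h4h, Hist2h3b and Hist2h2aa1, and Aldoa, Tcap, Eno3 and Gapdh. Like the muscle-list genes, Aldoa, Tcap, Eno3 and Gapdh were lowest per length in mouse 699. The muscle list may therefore not hold all muscle genes of the 25. Rplp1, a protein of the large ribosomal subunit, varied little, at 3968 ± 261 TPM, while S100a9 ran from 4864 TPM in mouse 686 to 35593 TPM in mouse 699. The histone genes were all highest in mouse 699, the highest library for 49.8% of genes with a mean of 10 CPM or more. Histone mRNAs as a family of 64 genes took 2.03% of the counts in mouse 699 and between 0.461% and 0.836% in the other 6.

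**Figure D2:**
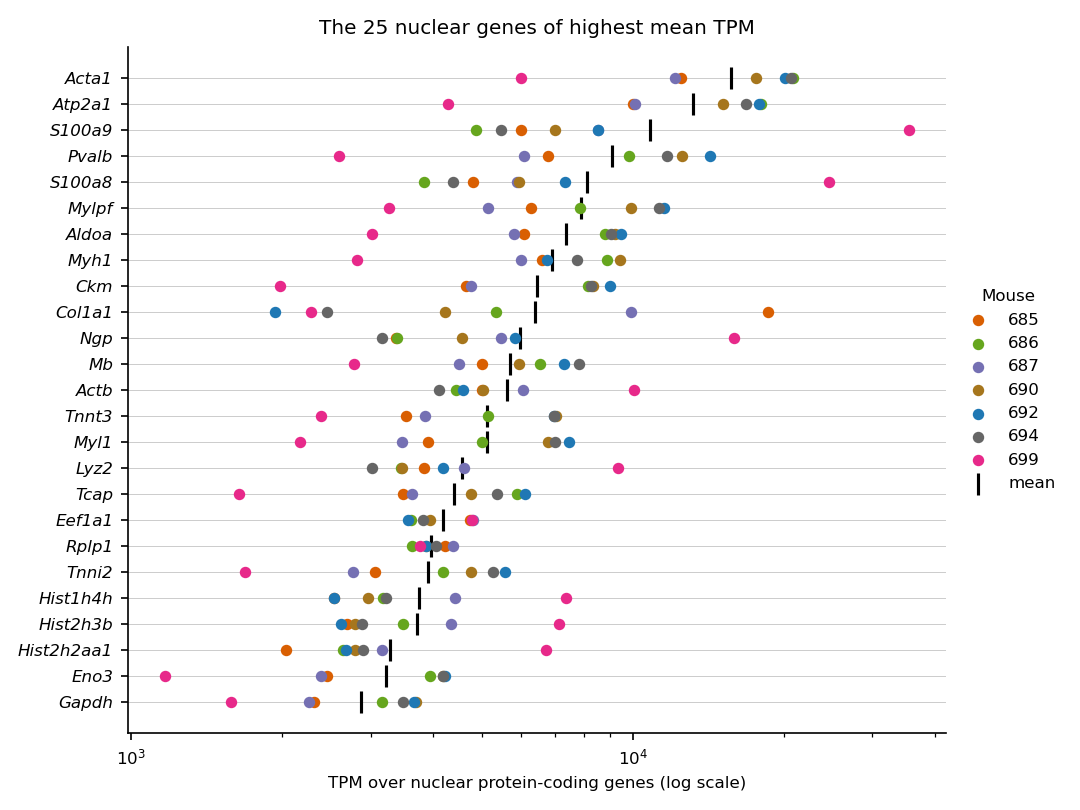
Level per length (TPM, log-scaled x axis) of the 25 nuclear genes of highest mean TPM, 1 point per mouse and a tick at the mean. Muscle genes such as Acta1 and Pvalb are lowest in mouse 699 (pink), where S100a9 reaches 35593 TPM.

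By summed counts, the skeletal muscle list was the largest of the cell-type lists on average. The 20 genes of the muscle list took 10.9% ± 3.16 of all counts, from 4.82% in mouse 699 to 14.2% in mouse 686, with a median of 11.5%. All 20 were above 10 CPM in every library, against 8381 of the 25471 genes listed. Without mouse 699 the share was 11.9% ± 1.85. Titin (Ttn) alone carried 52.6% of the list. Per length, the muscle list summed to 35829 TPM in mouse 699, below the 102713 TPM of the neutrophil list there, and in each of the other 6 mice it was above the neutrophil list. Of the 20 genes, 17 were lowest in mouse 699, against 24.0% of all genes with a mean of 10 CPM or more. Fast fibres use the myosin heavy chains Myh4 (type 2B), Myh1 (type 2X) and Myh2 (type 2A), and slow fibres use Myh7. Myh1 ranged from 4218 in mouse 699 to 11047 in mouse 690, with a median of 8204 CPM. Myh4 ranged from 666 in mouse 685 to 6222 in mouse 692, with a median of 2473 CPM, a wider spread than that of Myh1. Per length, Myh1 exceeded Myh4 in all 7 mice, 3.40-fold on average (log2 ratio SD 0.896, exact sign-flip permutation p = 0.0156, adjusted p = 0.0208 over the 12 gene pairs tested). That p is the smallest that 7 mice allow. Myh4 was above Myh2 in 6 of 7 mice, by 1.53-fold, which did not pass (exact sign-flip permutation p = 0.141). Without mouse 685, where Myh4 was the lower one, the ratio was 1.83 (adjusted exact permutation p = 0.0375). Leaving out the only mouse with the other order fixes the unadjusted p at its smallest, so that p adds no evidence. Myh7 was low, at 6.21 ± 3.02 CPM, and Myh2 exceeded it 362-fold (same exact p and adjusted p as Myh1 against Myh4). The slow-fibre troponin genes Tnnc1, Tnni1 and Tnnt1 had means of 2.71, 1.94 and 6.91 CPM, and the 8 genes of that list together took 0.0241% ± 0.00866 of the counts, of which 45.4% was Csrp3, a protein of the sarcomere's edge, at 109 ± 51.4 CPM. The satellite cell gene Pax7 was at 0.786 ± 0.350 CPM.

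The osteoblast list of 21 genes took 1.48% ± 1.149 of the counts. The shares were 3.81% in 685, 1.21% in 686, 2.15% in 687, 1.12% in 690, 0.583% in 692, 0.763% in 694 and 0.747% in 699. Mice 685 and 687 were above 2% and the other 5 at or under 1.21%, so the highest share was 6.52 times the lowest. All 21 genes were above 1 CPM in every library, against 12796 of the 17017 nuclear mRNA genes. Of the 21, 19 were above 10 CPM, against 8381 of the 25471 genes listed. Mouse 685 was the highest library for 19 of the 20 members with a mean of 10 CPM or more, against 11.7% of all such genes, and mouse 692 the lowest for 11, against 14.6%. Col1a1 and Col1a2 encode the chains of type I collagen, and Col1a1 alone carried 47.8% of the list. Col1a1 (chr11:94936224-94953042, plus strand) was at 18900.5 in 685, 5701 in 686, 10859 in 687, 5111 in 690, 2433 in 692, 3135 in 694 and 3526 in 699 CPM. Within a library it ranked between 6 and 30 by CPM. Col1a2 followed it, from 1426 in mouse 692 to 12469 in mouse 685, with a median of 3179 CPM. Per length, Col1a1 exceeded Col1a2 3.03-fold, with ratios of 2.69 to 3.36 over the 7 mice (exact sign-flip permutation p = 0.0156, adjusted p = 0.0208). That ratio held within a narrow range although the level of Col1a1 itself spanned 7.77-fold. Its size rests on the exon lengths used, 6563 bases for Col1a1 and 12426 for Col1a2. Before division by length the means were 7095 and 4499 CPM. The protein itself holds more Col1a1 than Col1a2 chains.

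Sparc, which encodes osteonectin, a matrix protein that binds collagen and mineral, was at 1147 ± 786 CPM, from 544 in mouse 699 to 2733 in mouse 685, with a median of 914 CPM. Spp1 (osteopontin) and Ibsp (bone sialoprotein) are acidic matrix proteins that bind cells to mineral. Spp1 was at 511 ± 168 CPM and Ibsp at 170.2 ± 48.7 CPM, and per length Spp1 exceeded Ibsp 3.74-fold in 7 of 7 mice (exact sign-flip permutation p = 0.0156, adjusted p = 0.0208). Alpl, the phosphatase that frees phosphate for mineral, was at 75.7 ± 27.7 CPM. The transcription factors of the lineage, Runx2 and Sp7, were at 79.5 ± 19.7 CPM and 47.2 ± 21.6 CPM. Phospho1, another phosphatase of mineralisation, ranged from 69.9 in mouse 685 to 117 in mouse 694, with a median of 96.9 CPM. Mouse 685 was thus the lowest library for Phospho1 and the highest for the other 19 members with a mean of 10 CPM or more.

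Osteocalcin, the small bone protein that binds calcium through modified glutamate residues, is encoded in the mouse by the neighbours Bglap (chr3:88383501-88384464, minus strand, GRCm38) and Bglap2 (chr3:88377736-88378699, minus strand). Their coding sequences are shown, from GENCODE M21, because they differ at only 4 of 288 bases, which stand in capitals, so reads from most of the coding sequence fit both genes.
Bglap: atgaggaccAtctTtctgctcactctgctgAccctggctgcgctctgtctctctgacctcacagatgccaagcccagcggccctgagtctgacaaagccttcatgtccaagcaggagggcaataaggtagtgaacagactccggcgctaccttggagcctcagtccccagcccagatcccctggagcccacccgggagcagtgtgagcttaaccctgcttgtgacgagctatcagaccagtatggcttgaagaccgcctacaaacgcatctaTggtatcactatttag
Bglap2: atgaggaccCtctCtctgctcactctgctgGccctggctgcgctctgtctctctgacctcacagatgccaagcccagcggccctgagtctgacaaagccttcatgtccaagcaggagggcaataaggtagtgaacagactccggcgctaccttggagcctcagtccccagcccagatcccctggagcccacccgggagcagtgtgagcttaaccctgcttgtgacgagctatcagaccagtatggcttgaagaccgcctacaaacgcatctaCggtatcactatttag
The sum of both was 300.2 ± 261 CPM, from 86.4 in mouse 692 to 829.8 in mouse 685, and Bglap received between 51.5% and 60.4% of it. The sum spanned 9.60-fold, more than Col1a1.

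The osteocyte list of 11 genes took 0.121% ± 0.0454 of the counts, and the shares were 0.193% in 685, 0.113% in 686, 0.174% in 687, 0.111% in 690, 0.0740% in 692, 0.0959% in 694 and 0.0839% in 699. Mice 685 and 687 were again the highest and mouse 692 the lowest. Sost, which encodes sclerostin, an inhibitor of Wnt signalling and of bone formation, was the leading member with 37.1% of the list. Sost (chr11:101962458-101967015, minus strand) was at 702 in 685, 453 in 686, 688 in 687, 389 in 690, 251 in 692, 349.6 in 694 and 306 in 699 CPM. Mepe and Dmp1, matrix phosphoproteins that bear on mineralisation, were at 198 ± 72.0 CPM and 181 ± 58.2 CPM. Per length, Sost was 1.82 times Mepe and 3.23 times Dmp1, each in 7 of 7 mice (exact sign-flip permutation p = 0.0156 and adjusted p = 0.0208 for both). The ratios to Dmp1 and Mepe had SDs of 0.162 and 0.119 on the log2 scale. Phex, an endopeptidase that restrains Fgf23, was at 89.3 ± 46.9 CPM. Fgf23, the hormone through which bone makes the kidney excrete phosphate, ranged from 1.09 in mouse 699 to 3.43 in mouse 687, with a median of 2.54 CPM. All 11 genes were above 1 CPM in every library, against 12796 of the 17017 nuclear mRNA genes. Pdpn, a marker of young osteocytes that lymphatic vessels also express, was at 8.18 ± 2.58 CPM. Gja1, the connexin of osteocyte gap junctions, was at 140.05 ± 60.2 CPM.

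The osteoblast and osteocyte lists moved together over the mice. The log2 shares had Pearson's r = 0.980 and the order of the mice was the same in both lists (Spearman's rho = 1; exact permutation p = 0.000198 and 0.000397, each the smallest its test can give, adjusted p = 0.00238 and 0.00476 over 12 pairs of lists). Without mice 685 and 687, the 2 farthest from the median, r was 0.964 over 5 mice. The osteoblast share spanned 6.52-fold and the osteocyte share 2.61-fold. All genes share each library's total, and the part of this in the correlation was not tested. The muscle and adipocyte lists had r = 0.919 (adjusted exact permutation p = 0.178), which rested on the outer mice, since r was 0.00287 without 686 and 699. The part of muscle RNA in the adipocyte list itself was not tested. The muscle and neutrophil lists had r = -0.846 (adjusted exact permutation p = 0.178), and r = 0.402 without 686 and 699. Leaving out 1 library was enough to bring these 2 values of r to 0.183 and 0.0311. The endothelial and erythroid lists passed by rank (rho = 0.929, adjusted exact permutation p = 0.0405) and not by r (0.764, adjusted exact permutation p = 0.178). The muscle and osteoblast shares had r = 0.0477 (adjusted exact permutation p = 0.922) and the osteoblast and osteoclast shares r = -0.240 (adjusted exact permutation p = 0.695). None of the remaining 6 pairs passed, with adjusted exact permutation p of 0.178 or more for r and 0.352 or more for rho.

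**Figure D3:**
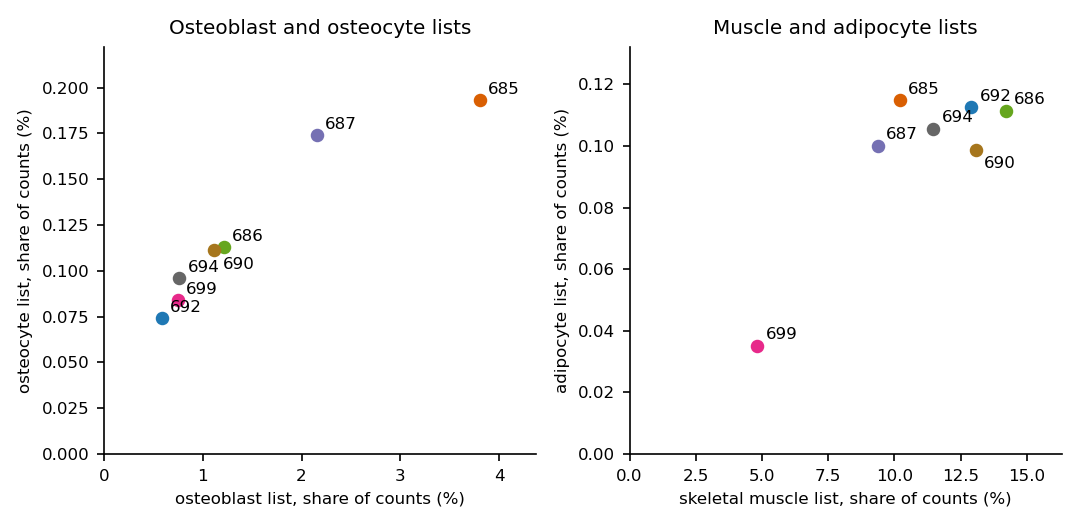
Left, osteocyte list share against osteoblast list share (both % of counts), 1 point per mouse; the order of the mice is the same on both axes, from 692 to 685. Right, adipocyte against skeletal muscle list share; mouse 699 lies apart, at 4.82% and 0.0352%.

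RUNX2 is known to bind the letters AACCACA. This motif was searched on both strands (AACCACA or TGTGGTT) in the 250 bases before each transcription start in RefSeq's promoters (GRCm38.p6). It was present for 3 of the 14 osteoblast-list genes with a promoter in the table (Mmp13, Runx2 and Spp1) and for 1 of the 10 osteocyte-list genes (Dmp1), beside 5.08% of all 27025 genes in it. Among the 7550 of them with a mean of 10 CPM or more it was present for 3.79%. In other lists it was present for 1 of 6 osteoclast genes, 1 of 16 skeletal muscle genes and 0 of 15 neutrophil genes. Mmp13 encodes a collagenase and was at 164 ± 56.4 CPM. A promoter with the motif, in capitals, is shown from the osteoblast and osteocyte lists, for Mmp13 (chr9:7272264-7272513, plus strand) and Dmp1 (chr5:104202367-104202616, plus strand). Whether the motif bears on the shared movement of these lists was not tested. A match is a description of letters and shows no binding.
Mmp13: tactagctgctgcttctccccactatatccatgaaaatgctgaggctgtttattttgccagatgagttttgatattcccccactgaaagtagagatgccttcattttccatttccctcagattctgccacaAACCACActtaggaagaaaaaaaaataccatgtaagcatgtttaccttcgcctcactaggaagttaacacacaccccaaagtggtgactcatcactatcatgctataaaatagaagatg
Dmp1: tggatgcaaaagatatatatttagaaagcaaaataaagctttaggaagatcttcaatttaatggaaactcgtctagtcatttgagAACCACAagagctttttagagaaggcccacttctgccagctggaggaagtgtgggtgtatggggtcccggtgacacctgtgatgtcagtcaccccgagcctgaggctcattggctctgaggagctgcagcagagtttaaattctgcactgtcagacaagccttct

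The osteoclast list of 12 genes took 0.133% ± 0.0346 of the counts, and 0.121% ± 0.0152 without mouse 699, where it was highest at 0.205%. Mmp9, a gelatinase that neutrophils also store, carried 35.3% of it and ranged from 274 in mouse 687 to 965 in mouse 699, with a median of 392 CPM. Itgb3, another member, ranged from 120 in mouse 685 to 537 in mouse 699, with a median of 217 CPM. The part of other cell types in Mmp9 and Itgb3, and so in the high share of mouse 699, was not tested. Of the 8 members with a mean of 10 CPM or more, 5 were highest in mouse 699, against 49.8% of all such genes. Ctsk, the collagen-degrading protease cathepsin K, ranged from 93.8 in mouse 687 to 249.3 in mouse 685, with a median of 173 CPM. Acp5, tartrate-resistant acid phosphatase, ranged from 113 in mouse 687 to 269.96 in mouse 690, with a median of 224 CPM. Both were lowest in mouse 687 and neither was highest in mouse 699. Per length Ctsk was 1.10 times Acp5, higher in 6 of 7 mice, which did not pass (exact sign-flip permutation p = 0.0938, adjusted p = 0.102). Without mouse 699, the only mouse in which Acp5 was higher, the ratio was 1.14 (adjusted exact permutation p = 0.0341). That choice fixes the unadjusted p at its smallest, so it adds no evidence. The sign turned with another gene length: by the longest transcript the ratio was 0.787 (adjusted exact permutation p = 0.0208). The fusion genes Dcstamp and Ocstamp were at 2.80 ± 0.995 CPM and 2.53 ± 1.07 CPM and the calcitonin receptor Calcr at 1.95 ± 0.525 CPM.

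Marrow genes were present in all libraries, and those of neutrophils and red cells were highest in mouse 699. The share of the neutrophil list of 16 genes ranged from 0.327% in mouse 685 to 2.37% in mouse 699, with a median of 0.486%. With all 7 mice the mean was 0.733% ± 0.731, and without mouse 699 it was 0.461% ± 0.133. All 16 genes were highest in mouse 699, against 49.8% of all genes with a mean of 10 CPM or more. S100a9 and S100a8 form calprotectin, a calcium-binding complex of neutrophils. S100a9 ranged from 414 in mouse 686 to 4377 in mouse 699, with a median of 674 CPM, and S100a8 ranged from 434 in mouse 686 to 4025 in mouse 699, with a median of 682 CPM. Per length, S100a9 was 1.28 times S100a8 in 7 of 7 mice (exact sign-flip permutation p = 0.0156, adjusted p = 0.0208). This order depends on the length used, since by the longest transcript S100a8 was 1.08 times S100a9 (adjusted exact permutation p = 0.0682). Ngp, Ltf and Camp, proteins of secondary granules, were at 1451 ± 1405 CPM, 871 ± 798 CPM and 339 ± 317 CPM, and without mouse 699 at 929 ± 288 CPM, 576 ± 169.96 CPM and 221 ± 48.5 CPM. Mpo, Elane and Prtn3, proteins of primary granules made in promyelocytes, were at 493 ± 416 CPM, 146 ± 118 CPM and 131 ± 121 CPM, and without mouse 699 at 342 ± 123 CPM, 103 ± 34.2 CPM and 87.2 ± 38.3 CPM.

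Red cell precursors were represented by 15 genes with 0.126% ± 0.100 of the counts, and 0.0898% ± 0.0363 without mouse 699. All 15 were highest in mouse 699, against 49.8% of all genes with a mean of 10 CPM or more. The lowest share was in mouse 685 at 0.0405%. Slc4a1, the anion exchanger of the red cell membrane, ranged from 138 in mouse 685 to 1331 in mouse 699, with a median of 359.8 CPM, with mouse 699 the highest. The beta-globins Hbb-bs and Hbb-bt were at 125 ± 109.8 CPM and 18.7 ± 22.3 CPM, and without mouse 699 at 87.2 ± 46.2 CPM and 10.6 ± 6.85 CPM. These genes are alike in sequence, so their split is an estimate of the authors' counting. Per length Hbb-bs exceeded Hbb-bt 7.31-fold in 7 of 7 mice (exact sign-flip permutation p = 0.0156, adjusted p = 0.0208). Per length, Hbb-bs was at 831 ± 577 TPM and ranked 148 among nuclear coding genes with all 7 mice, Slc4a1 was at 499 ± 315 TPM, and Alas2, the first enzyme of haem synthesis in red cells, was at 338 ± 168 TPM. The alpha-globin genes Hba-a1 and Hba-a2 differ at 1 of 429 coding bases, and only their sum, 107 ± 90.3 CPM, can be read. Hba-a1 received between 4.49% and 38.0% of that sum.

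Megakaryocyte genes took 0.0556% ± 0.0374, and 0.0427% ± 0.0165 without mouse 699. All 10 were highest in mouse 699, against 49.8% of all genes with a mean of 10 CPM or more. All were also lowest in mouse 685, the lowest library for 22.4% of genes at that level. The list was led by the platelet chemokine Ppbp, which ranged from 69.5 in mouse 685 to 579 in mouse 699, with a median of 167 CPM. The eosinophil genes Prg2 (major basic protein) and Epx (eosinophil peroxidase) were expressed in every library. Prg2 ranged from 93.9 in mouse 686 to 1025 in mouse 699, with a median of 228 CPM and Epx from 30.1 in mouse 685 to 314 in mouse 699, with a median of 72.0 CPM. Mouse 699 was the highest for both, and without it the list of mast cell, basophil and eosinophil genes took 0.0313% ± 0.0113 instead of 0.0479% ± 0.0452. The mast cell proteases Mcpt4, Cma1 and Tpsb2 stayed under 2 CPM in every library. The macrophage and monocyte list took 0.207% ± 0.108, and 0.166% ± 0.0150 without mouse 699. Of its 13 members with a mean of 10 CPM or more, 9 were highest in mouse 699, against 49.8%, 3 in mouse 685 and 1 in mouse 694. Within it Lyz2 and Ly6c2, which neutrophil precursors and monocytes express, were highest in mouse 699 at 2899 and 333 CPM. Csf1r, the receptor of macrophage colony-stimulating factor, ranged from 100.4 in mouse 692 to 150.4 in mouse 685, with a median of 109.99 CPM, so mouse 699 lay within the range of the others. The complement genes C1qa, C1qb and C1qc of tissue macrophages had means of 44.5, 53.1 and 55.8 CPM, with mouse 699 at 57.9, 65.7 and 73.5.

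B-lineage RNA followed another order. The 15 genes took 0.0599% ± 0.0208, and the shares were 0.0726% in 685, 0.0494% in 686, 0.0766% in 687, 0.0707% in 690, 0.0279% in 692, 0.0399% in 694 and 0.0821% in 699. Mouse 692 was the lowest library for 9 of the 10 members with a mean of 10 CPM or more, against 14.6% of all genes at that level, and mouse 687 the highest for 5, against 6.22%. Cd79a, a chain of the B-cell receptor complex, ranged from 13.1 in mouse 692 to 54.1 in mouse 687, with a median of 38.8 CPM, and Rag1, which recombines receptor genes in precursors, from 9.07 in mouse 692 to 50.1 in mouse 699, with a median of 26.2 CPM. The plasma cell gene Jchain, which joins antibody chains, was at 42.4 ± 26.5 CPM. T and NK cell genes were scarce: 15 genes took 0.00599% ± 0.00228, and Cd3e, a chain of the T-cell receptor complex, was at 2.67 ± 0.964 CPM.

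Marker genes of proliferating cells took 0.130% ± 0.0946, and 0.0945% ± 0.0200 without mouse 699. All 18 genes were highest in mouse 699 and lowest in mouse 685, against 49.8% and 22.4% of genes with a mean of 10 CPM or more. Mki67, a marker of cycling cells, ranged from 173 in mouse 685 to 1361 in mouse 699, with a median of 320.1 CPM. The proliferation genes, the histones, the neutrophil list and the erythroid list were thus all highest in the same library, and the part of marrow content in each was not tested.

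**Figure D4:**
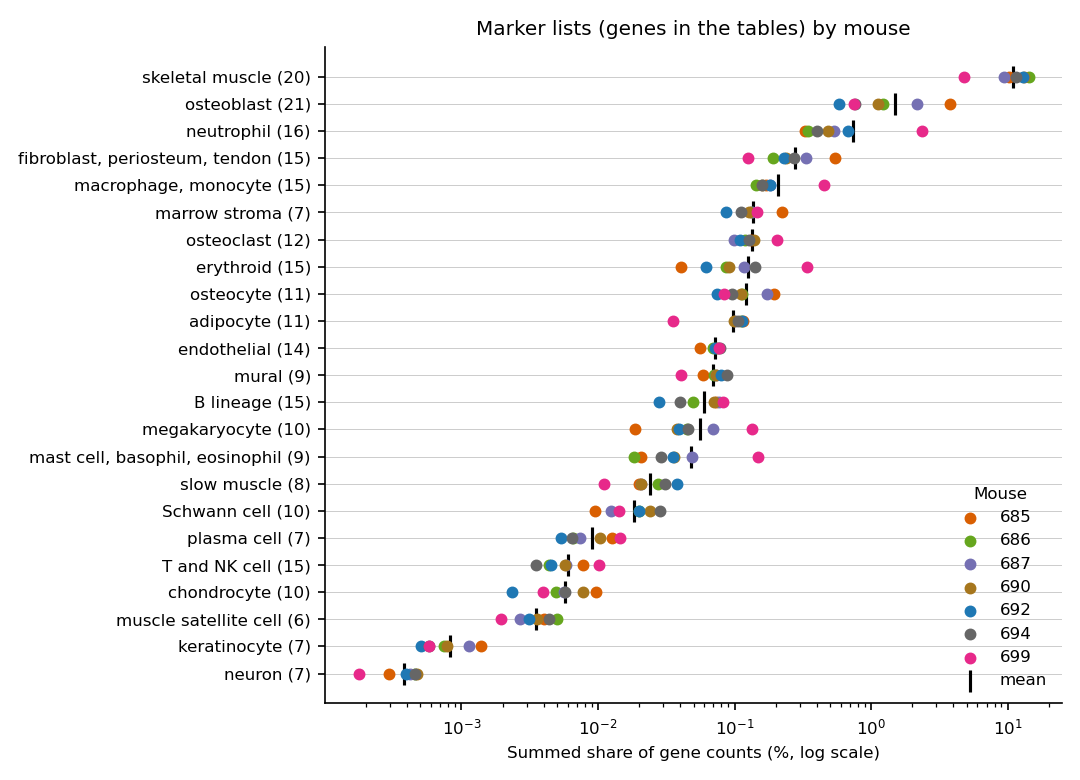
Summed share of counts (%, log-scaled x axis) of each marker list, 1 point per mouse and a tick at the mean; the number of genes in the tables stands beside each name. Skeletal muscle lies at 4.82% to 14.2%, neurons and keratinocytes under 0.002%, and mouse 699 (pink) is the highest library for neutrophil, erythroid and megakaryocyte genes and the lowest for muscle and adipocyte genes.

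Connective tissue genes of periosteum, tendon and fibroblasts took 0.277% ± 0.136, and 0.303% ± 0.129 without mouse 699, the lowest library at 0.125%. Of the 12 members with a mean of 10 CPM or more, 9 were highest in mouse 685, against 11.7% of all such genes, and 11 lowest in mouse 699, against 24.0%. Col3a1, the chain of type III collagen, ranged from 432 in mouse 699 to 2417 in mouse 685, with a median of 678 CPM, and Dcn, the small proteoglycan decorin, from 118 in mouse 699 to 504 in mouse 694, with a median of 403 CPM. The tendon genes Tnmd and Scx were low, at 3.26 ± 1.46 CPM and 2.52 ± 1.02 CPM. The marrow stroma list took 0.137% ± 0.0420, of which 66.05% was Cxcl12, the chemokine that retains blood stem cells, which ranged from 514 in mouse 692 to 1588 in mouse 685, with a median of 883 CPM. Of the 7 genes of that list, 6 were highest in mouse 685, against 11.7%, and 6 lowest in mouse 692, against 14.6%.

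The summed share of the adipocyte list was even in 6 mice, 0.107% ± 0.00677, and lower in mouse 699 at 0.0352%. Plin4 alone carried 36.1% of the list, followed by Lpl at 311 ± 80.8 CPM. Plin4 and Lpl were lowest in mouse 699, at 100 and 158 CPM, as was the muscle list. The part of muscle and other cell types in Plin4 and Lpl, and so in the share of the adipocyte list, was not tested. Single members were less even. Among those 6 mice Adipoq ranged from 25.4 CPM in mouse 692 to 65.5 CPM in mouse 685. The lipid droplet genes Plin1 and Cidec were at 1.43 and 1.02 CPM in mouse 699, where the other 6 libraries lay between 17.8 and 45.3 CPM for Plin1 and between 17.9 and 32.3 CPM for Cidec. Cfd, the complement protease adipsin, ranged from 5.89 in mouse 699 to 239 in mouse 685, with a median of 103 CPM. Ucp1 was not analysed here. Relative to their mean, endothelial genes differed least between mice among the cell-type lists plotted, with 0.0719% ± 0.00754 and shares from 0.0560% in mouse 685 to 0.0777% in mouse 694, with a median of 0.0747%. Pecam1, an adhesion molecule of endothelium, ranged from 72.9 in mouse 685 to 105 in mouse 692, with a median of 93.9 CPM. The mural list took 0.0692% ± 0.0156, with Acta2, smooth muscle actin, ranging from 21.1 in mouse 685 to 85.5 in mouse 687, with a median of 76.3 CPM. Mice 685 and 699 were low for Acta2 and the other 5 were at 65.0 CPM or more. The 7 neuronal genes, whose cell bodies lie elsewhere, summed to 0.000382% ± 0.000109.

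Cartilage genes were scarce and genes of other tissues near 0. Col2a1, the main collagen of cartilage, was at 37.1 ± 15.7 CPM, but Col10a1, which marks hypertrophic cartilage, had 7 counts at most in a library, and the 10 cartilage genes took 0.00572% ± 0.00241. Acan, the large cartilage proteoglycan, was at 45.0 CPM in mouse 685 and at 10.1 CPM or less in the others. The keratins Krt5, Krt14 and Krt15 of skin had 51, 51 and 56 counts in mouse 685 and 4 or fewer in each other library. Alb, Apoa1 and Prm1, which mark liver and testis, had 6 counts or fewer in every library. Gfap, a filament of astrocytes and some Schwann cells, was at 2.31 ± 1.74 CPM. Ttr, Umod, Ins2 and Sftpc were not analysed here.

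Of 22 genes for secreted regulators of bone, 20 were above 1 CPM in every library, against 12796 of the 17017 nuclear mRNA genes. Sost carried 41.6% of the counts of these 22. Tnfsf11 (RANKL), which drives osteoclast formation, was at 4.56 in 685, 1.94 in 686, 2.64 in 687, 1.75 in 690, 3.65 in 692, 2.70 in 694 and 2.76 in 699 CPM. Its soluble decoy receptor Tnfrsf11b (osteoprotegerin) ranged from 13.3 in mouse 699 to 38.6 in mouse 687, with a median of 29.0 CPM. Per length Tnfrsf11b exceeded Tnfsf11 7.89-fold, with ratios from 3.82 to 13.2 (7 of 7 mice, exact sign-flip permutation p = 0.0156, adjusted p = 0.0208). Csf1, the other factor osteoclasts need, was at 49.2 ± 9.06 CPM. Dkk1, a Wnt inhibitor, was at 19.2 ± 7.07 CPM. Among Wnt ligands Wnt5a and Wnt10b were at 16.1 ± 4.64 CPM and 13.3 ± 5.71 CPM. Wnt1 ranged from 0.331 in mouse 694 to 2.29 in mouse 687, with a median of 0.964 CPM, above 1 CPM in 3 of the 7 libraries. Tgfb1, a growth factor stored in bone matrix, was at 116 ± 46.1 CPM, and Ltbp2, a matrix protein of the family that binds such factors, ranged from 25.3 in mouse 692 to 71.1 in mouse 685, with a median of 40.2 CPM.

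Of 16 genes linked to the sensing of load, 15 were above 1 CPM in every library, against 12796 of the 17017 nuclear mRNA genes. Piezo1, a stretch-gated channel, ranged from 57.2 in mouse 692 to 87.1 in mouse 685, with a median of 72.3 CPM and was among the steadier genes, with a biological coefficient of variation (BCV, the spread between mice beyond counting error, from edgeR) of 0.183. The median gene had a BCV of 0.240. Piezo2 was at 7.66 ± 2.87 CPM and Trpv4 at 6.19 ± 1.59 CPM. The prostaglandin synthase Ptgs2 was at 0.553 in 685, 0.187 in 686, 0.484 in 687, 0.241 in 690, 0.640 in 692, 0.331 in 694 and 0.717 in 699 CPM, under 1 CPM in all 7 libraries. Immediate-early genes, which respond within minutes to many stimuli, took 0.0754% ± 0.00645, and their median BCV was 0.263. Fos ranged from 16.6 in mouse 690 to 35.0 in mouse 692, with a median of 18.4 CPM and Egr1 from 17.6 in mouse 686 to 57.7 in mouse 699, with a median of 21.7 CPM. The clock list took 0.0890% ± 0.0186, and 0.0955% ± 0.00758 without mouse 699, which was lowest at 0.0498%. Dbp, an output gene of the clock, ranged from 30.2 in mouse 699 to 79.8 in mouse 690, with a median of 66.7 CPM and Arntl, which encodes the activator BMAL1, from 6.70 in mouse 692 to 11.0 in mouse 686, with a median of 9.41 CPM.

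Tlr4, the receptor for bacterial lipopolysaccharide that the study deletes in its other genotype, was expressed in all 7 bones. Tlr4 (chr4:66827584-66930284, plus strand) was at 30.04 in 685, 22.8 in 686, 31.3 in 687, 29.8 in 690, 37.7 in 692, 35.3 in 694 and 39.9 in 699 CPM, a spread of 1.75-fold with a BCV of 0.189. It ranked 5046 among the 25471 genes by mean CPM. Of the 12 Toll-like receptor genes, 11 were above 1 CPM in every library, against 12796 of the 17017 nuclear mRNA genes, and Tlr11 was not. Tlr13, which senses bacterial ribosomal RNA, was at 33.2 ± 18.4 CPM, with 74.3 CPM in mouse 699 and 32.2 CPM or less in the others. All 5 receptor genes with a mean of 10 CPM or more were highest in mouse 699, against 49.8%, and lowest in mouse 686, the lowest library for 24.2% of genes at that level. Tlr2, the receptor for bacterial lipoproteins, ranged from 8.54 in mouse 686 to 31.9 in mouse 699, with a median of 11.1 CPM. Per length Tlr4 was 1.31 times Tlr2, higher in 6 of 7 mice, which did not pass (exact sign-flip permutation p = 0.0938, adjusted p = 0.102). Without mouse 699, the only mouse in which Tlr2 was the higher one, the ratio was 1.47 (adjusted exact permutation p = 0.0341). That choice fixes the unadjusted p at its smallest, so it adds no evidence. Among the partners of Tlr4, the co-receptor Cd14 was at 5.84 ± 1.24 CPM and the adaptors Myd88, Tirap, Ticam1 and Ticam2 at 28.7 ± 10.8 CPM, 23.6 ± 5.33 CPM, 12.2 ± 2.22 CPM and 6.01 ± 3.57 CPM. All 6 partners with a mean of 10 CPM or more were highest in mouse 699, against 49.8% of genes at that level.

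The common BCV over 16223 genes was 0.279, and 0.201 without mouse 699. The 25th percentile of genes was at 0.190 and the 75th at 0.317. By cell type, the median member had a BCV of 0.572 for neutrophils, 0.554 for red cell precursors, 0.385 for muscle, 0.356 for osteoblasts, 0.333 for osteocytes and 0.193 for endothelium. Without mouse 699 these medians were 0.250 for neutrophils, 0.327 for red cell precursors, 0.303 for muscle, 0.309 for osteoblasts, 0.284 for osteocytes and 0.149 for endothelium, so neutrophils went from the first place to the fifth of these 6. Of 9502 genes with a gene name and a mean of 10 CPM or more, Lars2, mitochondrial leucyl-tRNA synthetase, had the highest BCV (1.19). It was at 653 in 685, 2491 in 686, 22.1 in 687, 56.9 in 690, 191 in 692, 55.5 in 694 and 521 in 699 CPM. The highest library for Lars2, mouse 686, was also the highest for Gm42418 and for the mitochondrial ribosomal RNA mt-Rnr2 (3147 CPM, against 345 CPM in mouse 687, the lowest for both Lars2 and mt-Rnr2); the part of ribosomal RNA in this result was not tested. The next were Stra6, a retinol transporter, the small nuclear RNA Rnu2-10, Cyp2e1, Acan, Hba-a1, Pck1, Wnt2b, Slc13a5 and Cpxm2. Stra6 was at 1.2999 in 685, 4.09 in 686, 10.4 in 687, 29.98 in 690, 25.6 in 692, 29.4 in 694 and 0.604 in 699 CPM. Mice 690, 692 and 694 were high and mice 685, 686 and 699 low. Wnt2b (from 1.32 in mouse 699 to 25.7 in mouse 694, with a median of 11.5 CPM) and Cpxm2 (from 5.10 in mouse 699 to 89.6 in mouse 692, with a median of 50.7 CPM) were high in the same 3 mice and low in the same 3. Pck1, the gluconeogenic enzyme that fat also uses, was at 0.491 CPM in mouse 699 and at 14.4 CPM or more in the others. Of these 10 genes, 5 (Lars2, Stra6, Acan, Hba-a1 and Slc13a5) were among the 10 highest without mouse 699. The value of Hba-a1 rests on the split between the alpha-globin copies.

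The lowest BCVs belonged to Gigyf2, Rapgef2, Irak1, Tex261, Ddx23, Atp6v0a2, Retreg3, Ipo8, Ubfd1 and Angel2, at 0.144 to 0.145. edgeR draws each gene's BCV toward a trend over genes, so values this close do not order the 10 genes. The plain coefficient of variation of CPM (SD over mean) was lower, 4.61% for Rapgef2 and 4.86% for Angel2. Their mean levels lay between 36.6 and 62.3 CPM, and the highest library exceeded the lowest by 1.14 to 1.25 times. Rapgef2, an exchange factor for small GTPases, ranged from 56.5 in mouse 686 to 64.7 in mouse 687, with a median of 63.3 CPM. Irak1, a kinase of Toll-like receptor signalling, ranged from 54.8 in mouse 686 to 68.3 in mouse 699, with a median of 60.0 CPM. These 10 genes were picked as the lowest, so every other gene ranked lies above them, including those often used as references. Actb ranged from 1938 in mouse 686 to 6336 in mouse 699, with a median of 2356 CPM. Gapdh, a glycolytic enzyme abundant in muscle, ranged from 1477 in mouse 685 to 2891 in mouse 692, with a median of 2126 CPM. Without mouse 699, Actb was at 2283 ± 285 CPM. The 10 genes of the reference list then had a median BCV of 0.148, against 0.173 for all genes fitted. Rplp0, a ribosomal protein, ranged from 552 in mouse 686 to 762 in mouse 699, with a median of 599 CPM. With all mice it had a BCV of 0.184, under the 25th percentile of 0.190.

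**Figure D5:**
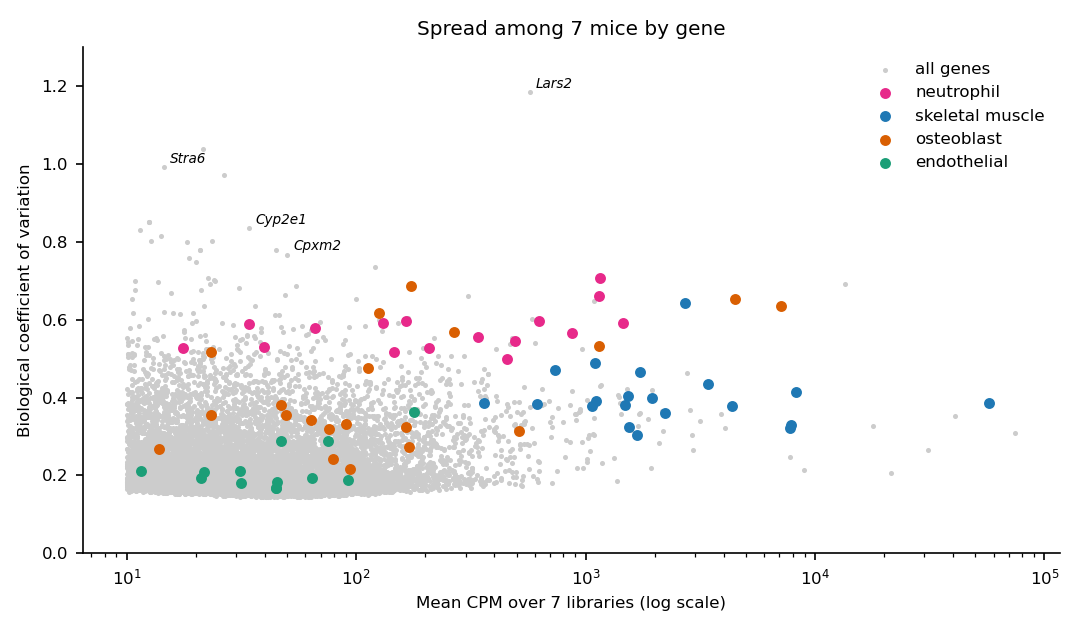
Biological coefficient of variation (y axis) against mean CPM (log-scaled x axis) for genes with a mean of 10 CPM or more, with 4 marker lists in colour and 4 of the 10 highest named genes labelled. Neutrophil genes lie at 0.4996 to 0.706, endothelial genes at 0.167 to 0.362.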

How the data were processed

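The authors deposited expected counts per gene for each library, whole numbers from RSEM after STAR alignment to GRCm38, per the submitters' processing notes. No version of either tool is stated. Of 25471 genes, 25454 were matched to GENCODE M21. Each count was divided by the library total (CPM), and for levels between genes by exon length, scaled to 1000000 over 17036 nuclear coding genes (TPM). Sums are given for near-identical copies, and values of a single copy are uncertain because RSEM splits reads among copies. edgeR 4.0.16 (TMM, filterByExpr, no covariate) gave the BCV, with limma 3.58.1, and principal components used log2 CPM with a prior count of 2. The script was tested on simulated data. Pairs of lists were tested by exact permutation over the 7 mice and pairs of genes by exact sign flips of the log2 ratio, both two-sided, with Benjamini-Hochberg adjustment over 12 pairs each. Totals of counts, members, lengths, filters and libraries were varied.

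Genes were named by rule: the 20 highest by CPM, the 25 highest by TPM, up to 4 leading members of each marker list, the 10 highest and 10 lowest BCVs at a mean of 10 CPM or more, the tested pairs, and a set of bone genes with Tlr4. Other list members named here were chosen after their values were seen. The members and lists were chosen with earlier results of these data known. The other 15 libraries were left out because no contrast was asked for. Sequences are from the GENCODE M21 annotation on GRCm38 and from RefSeq's promoters.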

Additional observations from a re-analysis of the deposited data

Results flagged for a closer look

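Of 229 values over the 7 libraries, 68 had 1 library far from the others: its gap to the nearest other library, divided by the whole range, was above Dixon's 95% critical value for 7 samples. That critical value is set so that about 1 in 20 single sets of 7 would stand out by chance. The values here overlap, as lists and their members do, and some genes were named for their spread. The count of 68 is therefore not compared with that rate. Mouse 699 was the library apart in 50 of the 68, as the highest in 46 and the lowest in 4, and the values share its library.

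Among shares of counts, mouse 699 was far above the rest for the pseudogenes (0.321%), the osteoclast list (0.205%), the erythroid list (0.340%), the neutrophil list (2.37%), the macrophage and monocyte list (0.451%), the mast cell, basophil and eosinophil list (0.148%), the genes of other tissues (0.000604%), the proliferation genes (0.340%), the Toll-like receptor genes (0.0239%), the partners of Tlr4 (0.0254%), the list of reference genes (1.49%) and the histone family (2.03%). Of the neutrophil and monocyte genes, mouse 699 was far above for S100a8 (4025 CPM), S100a9 (4377 CPM), Ngp (4579.6 CPM), Ltf (2646 CPM), Camp (1049.9 CPM), Mpo (1401 CPM), Elane (404 CPM), Prtn3 (394 CPM), Lyz2 (2899 CPM), Ly6c2 (333 CPM) and Mmp9 (965 CPM). Of the red cell, platelet, eosinophil and plasma cell genes, mouse 699 was far above for Slc4a1 (1331 CPM), Hba-a2 (261 CPM), the sum of Hba-a1 and Hba-a2 (299.98 CPM), Hbb-bs (355 CPM), Hbb-bt (67.2 CPM), the sum of Hbb-bs and Hbb-bt (423 CPM), Ppbp (579 CPM), Prg2 (1025 CPM), Epx (314 CPM) and Jchain (96.7 CPM). Values of single globin copies rest on how the counts were split between them. Of the genes of proliferation, histones and general functions, mouse 699 was far above for Mki67 (1361 CPM), Hist1h4h (814 CPM), Hist2h2aa1 (929 CPM), Hist2h3b (819 CPM), Actb (6336 CPM), Eef1a1 (2806 CPM), Rplp0 (762 CPM), Egr1 (57.7 CPM) and Gfap (6.003 CPM). Of the Toll-like receptor genes and adaptors, mouse 699 was far above for Tlr2 (31.9 CPM), Tlr13 (74.3 CPM), Myd88 (52.0 CPM) and Ticam2 (13.9 CPM). It was far below the rest on the first principal component (-88.2), for the adipocyte list (0.0352%), the clock list (0.0498%) and the channel gene Trpv4 (2.98 CPM).

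Mouse 685 was far above the others for Col3a1 (2417 CPM), Cxcl12 (1588 CPM), Spp1 (860.03 CPM), Gja1 (268 CPM), Slc13a5 (59.2 CPM), Acan (45.0 CPM), Krt15 (1.55 CPM), Krt14 (1.41 CPM), Csf1 (68.9 CPM) and Krt5 (1.41 CPM). These include genes of bone matrix, stroma, cartilage and skin. The others are Gja1 of osteocyte gap junctions, Csf1, which osteoclasts need, and Slc13a5, a citrate transporter. Mouse 685 was far below the others for the endothelial list (0.0560%). Mouse 686 was far above for Gm42418 (42390.5 CPM), Lars2 (2491 CPM) and the mitochondrial ribosomal and transfer RNAs (0.549%), and far below for genes that could not be matched to the annotation (0.00419%). Mouse 687 was far above for the class of RNase P and RNase MRP RNAs (1.47%) and for Rmrp within it (1699.7 CPM). Apoa1 was at 0.226 CPM in mouse 692, from 6 counts.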

How the results depend on the processing

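No paired analysis was possible because 1 limb per mouse enters and no groups are compared. Counted without structured small RNA genes in the total, nuclear mRNA was 87.0%. With nuclear protein-coding counts as the total, the muscle list took 14.8% and the osteoclast list 0.180%. Without their most abundant members, Ttn and Mmp9, these lists took 5.15% and 0.0860%. The common BCV lay between 0.201 (without mouse 699) and 0.296 as each library was left out. The first component took 34.9% of the variance with all genes that had 1 count in any library, 59.9% with genes at a mean of 10 CPM or more, and 52.4% to 62.1% as each library was left out. With the mean log2 CPM of members in place of the summed share, the muscle and Schwann cell lists had r = 0.949 (adjusted exact permutation p = 0.0238) and rho = 0.857 (adjusted exact permutation p = 0.143). By the longest transcript in place of all exons, S100a8 over S100a9 turned to 1.08, Ctsk over Acp5 turned to 0.787, and Tlr4 over Tlr2 rose to 1.79 and passed (adjusted exact permutation p = 0.0375). As each library was left out, Myh4 over Myh2 lay between 1.33 and 1.83, Tlr4 over Tlr2 between 1.24 and 1.47, and Ctsk over Acp5 between 1.07 and 1.14 (the highest without mouse 699, adjusted exact permutation p = 0.0341). Each highest ratio came without the only mouse of the other order, which fixes its unadjusted p at the smallest possible. Of the single-gene levels under other lengths or the median, 31 of 354 moved by more than 1 SD between mice. Of the other list shares under other totals or without the leading member, 38 of 82 did, and of the other class shares 3 of 16. Every library held 22744319 counts or more. The sources used here do not say how many reads were discarded, so the depth before counting is unknown. Genes at fewer than 3 counts, such as most of the keratin and liver genes, are below what these libraries can place. Shares of counts add to 100%, so a large share in one list lowers the others.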

Other observations

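The 82 ribosomal protein genes took 1.53% ± 0.273 of the counts, 1.21% at the lowest and 2.09% at the highest. The 44 collagen genes took 1.52% ± 1.17, with 0.640% in mouse 692 and 3.89% in mouse 685, so their share spanned more than that of the ribosomal proteins. Plasma cell genes took 0.00904% ± 0.00352, and Schwann cell genes 0.0183% ± 0.00660, led by the myelin gene Mbp, which ranged from 43.6 in mouse 685 to 97.6 in mouse 694, with a median of 77.0 CPM.

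The labels used here give no sex. Xist, which coats the inactive X chromosome, had between 1 and 14 counts in a library, and the Y-linked gene Ddx3y ranged from 42.7 in mouse 686 to 69.3 in mouse 694, with a median of 56.8 CPM, so all 7 libraries held Y-linked RNA and almost no Xist.

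The liver-type enzyme Cyp2e1, which fat also expresses, had one of the 10 highest BCVs and ranged from 0.906 in mouse 699 to 58.7 in mouse 694, with a median of 47.9 CPM. Its lowest library, like that of Plin1 and Cfd, was mouse 699.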
